A study of Mus musculus with 2 samples.

Results

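Desmosome genes were examined in 2 cell populations sorted from the dorsal skin of mice by a fluorescent reporter. The 9 genes were chosen by name, as Dsp, Jup, Pkp1, Pkp3, Perp, Dsg2, Dsg3, Dsc2 and Dsc3, and every non-control probe whose deposited gene name was one of them was taken. This gave 19 probes of 41174 and 9 genes of the 20898 named on the array, with 1 spot per probe. The tested population was the GFP-high fraction from Lgr6-EGFP-ires-CreERT2 knock-in mice (Lgr6-high), and it was set against the GFP-high fraction from Lgr5-EGFP-ires-CreERT2 knock-in mice (Lgr5-high). In both, the reporter and an inducible Cre are driven by the locus of the named R-spondin receptor gene, so the population and the mouse line cannot be told apart. Each sort combined 3 mice, and the labels give no strain, sex, age or treatment. Both RNAs were hybridised together on 2 two-colour arrays with the dyes exchanged. On array 1 Lgr6-high RNA carried Cy5 and Lgr5-high RNA Cy3, and on array 2 Lgr6-high RNA carried Cy3 and Lgr5-high RNA Cy5.

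Desmosomes are spot-like junctions that fasten the keratin filaments of neighbouring keratinocytes to each other. Desmogleins and desmocollins, which are cadherins, bridge the gap between the cells. Inside the cell their tails bind the armadillo proteins plakoglobin and the plakophilins, which in turn bind desmoplakin, and desmoplakin holds the keratin filaments. In skin the make-up of the desmosome changes as cells leave the basal layer, and loss of single components gives fragile or blistering skin or abnormal hair.

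The array measured each plaque gene through short stretches of its transcript, and the sequences below are those stretches, shown because the calls rest on them. Probe positions are on build mm9 as the files give them, and an exon or UTR label for that build was not used here. Dsp, on the plus strand of chromosome 13, had 4 probes starting at bases 5665, 6803, 8879 and 9266 of its transcript, at chr13:38285480-38286579 (a probe whose genomic span is 1100 bases, longer than its 60 bases), chr13:38287658-38287717, chr13:38289734-38289793 and chr13:38290121-38290180. Pkp1 was probed at chr1:137768027-137768086 (minus strand), Pkp3 at chr7:148276224-148276283 (plus), Jup at chr11:100232695-100232754 (minus) and Perp at chr10:18576697-18576756 (plus). The 3 inner Dsp probes are given whole because only 1 of them could be compared, and the other probes by their first 30 of 60 bases.
Dsp 5665: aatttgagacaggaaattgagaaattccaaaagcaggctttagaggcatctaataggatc
Dsp 6803: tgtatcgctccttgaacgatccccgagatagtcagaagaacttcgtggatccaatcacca
Dsp 8879: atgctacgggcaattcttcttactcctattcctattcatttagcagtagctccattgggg
Dsp 9266: aaattacactgactactggtggcttagtac
Pkp1 4371: catcttgtatgagaaccttgtgctgaacgg
Pkp3 2644: ccaccagaaaagaacaggcgcttgcaactg
Jup 2373: ctcacctggaaagctctcaagagcagactg
Perp 1718: gaaaatttgggaatgcgtgtctctgaatac

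On the 2 arrays, between 15.3% and 16.2% of probe spots were well above background in Cy5 and between 31.6% and 33.3% in Cy3, and none was saturated. A probe was compared only if at least 1 population was well above background on both arrays, which left 6195 genes. Each was represented by its brightest such probe. Nothing in the labels says whether the arrays hold separate RNA extracts, so they were treated as 1 replicate measured in both dye orientations, the calls rest on no test (limma over the arrays was an alternative), and every SD below (n = 2 arrays) covers the spread between hybridisations only. A gene was called by size, when its mean log2 ratio of Lgr6-high over Lgr5-high was at least 1 (2-fold) and each array by itself gave at least 0.5 with that sign. This rule put 451 genes higher in Lgr6-high cells and 295 higher in Lgr5-high cells, or 958 each way with the scanner software's own ratios. Ratios of the 2 arrays correlated across genes with a Pearson r of 0.75. In the 62 brightest genes the median ratio was 0.64 on array 1 and -1.35 on array 2, which touches the bright probes below. Lgr5 itself measured -1.83 ± 0.12 on the log2 scale, lower in Lgr6-high cells, and Lgr6 was not among the genes compared.

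Of the 9 desmosome genes, 5 could be compared, namely the 4 plaque genes Pkp1, Dsp, Pkp3 and Jup and the membrane protein gene Perp. All 5 measured higher in Lgr6-high than in Lgr5-high cells on both arrays, and 3 of them met the rule of size, at 4.48-fold for Pkp1, 2.67-fold for Dsp and 2.19-fold for Perp. Pkp3 at 1.97-fold and Jup at 1.90-fold lay just under it, and no member was called higher in Lgr5-high cells. Among all compared genes 7.28% were called in the direction of Lgr6-high cells, 4.76% in the direction of Lgr5-high cells and 12% in either, and 33.8% were positive on both arrays. The median log2 ratio of the 5 genes was 1.13, against -0.045 over all compared genes, and it was 1.28 over the 4 genes other than Jup, for which both populations were well above background on both arrays. The 4 desmosomal cadherin genes had no probe bright enough to compare. These are bulk measurements of sorted cells, in which fewer cells of a type and less RNA per cell cannot be told apart.

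**Figure D1:**
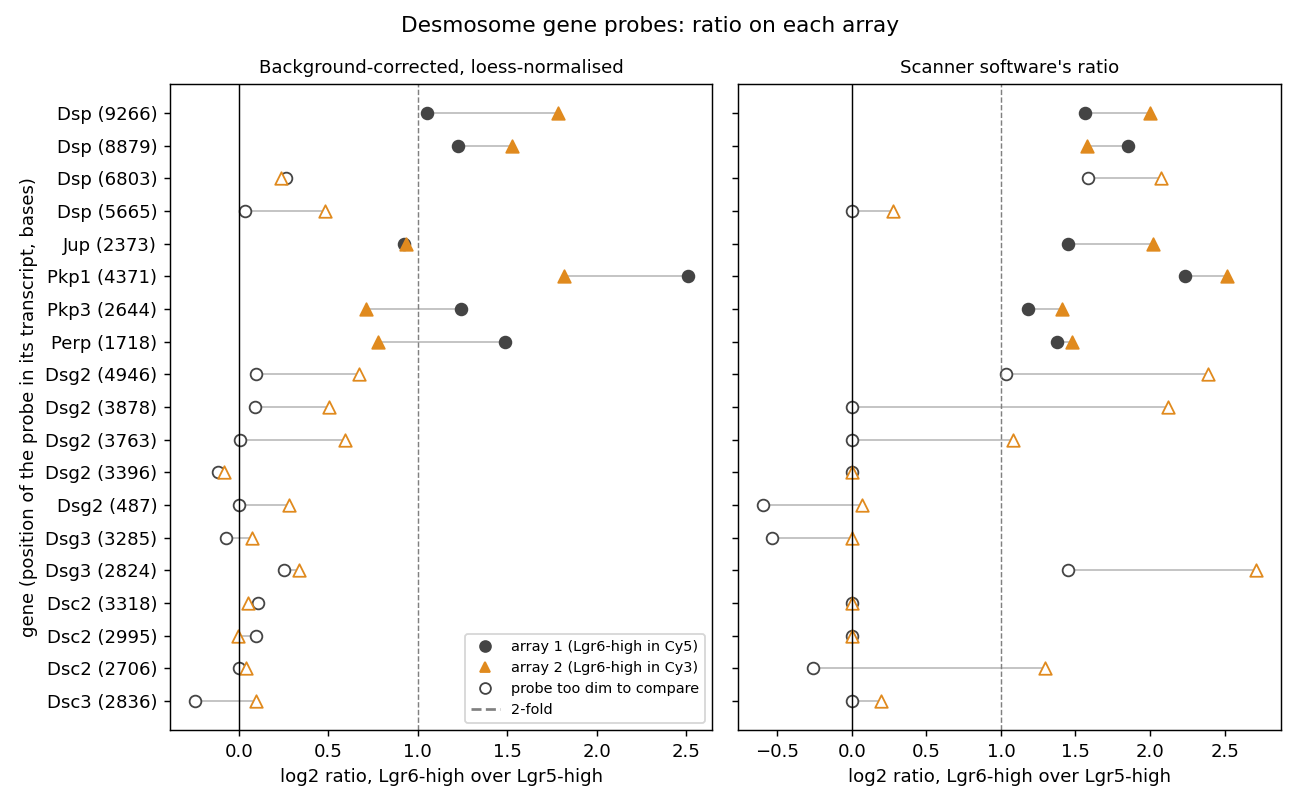
Log2 ratio of Lgr6-high over Lgr5-high (horizontal axis) for each of the 19 desmosome gene probes (rows, with the base of the transcript at which the probe starts), on array 1 (circles) and array 2 (triangles), after background correction and loess (left) and as the scanner software gave it (right). The 6 filled probes could be compared and lie right of 0 on both arrays in both panels, from 0.71 to 2.51 on the left, whereas the open probes are too dim to compare.

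Pkp1 encodes plakophilin 1, an armadillo protein of the desmosomal plaque that clusters desmosomal cadherins and recruits desmoplakin, and whose loss in humans causes skin fragility. In Cy3, its mean spot signal was 10574 in Lgr6-high cells (array 2), against 1588 in Lgr5-high cells (array 1). In Cy5, the signal was 1614 in Lgr6-high cells (array 1), against 546 in Lgr5-high cells (array 2). Within each dye the Lgr6-high population was thus the brighter one, and all 4 spots were well above background. The log2 ratios were 2.51 on array 1 and 1.82 on array 2, with a mean of 2.16 ± 0.49 (SD, n = 2 arrays). The ratios of the scanner software averaged 2.37 ± 0.20 for Pkp1. Its ratio stood at percentile 98.5 of all compared genes, the highest of the 5 members.

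Dsp encodes desmoplakin, the plakin that ties the plaque to keratin filaments. Its probe at base 9266 gave a Cy3 signal of 5117 in Lgr6-high cells, against 929 in Lgr5-high cells. In Cy5 the same probe gave 489 in Lgr6-high cells, against 342 in Lgr5-high cells. Lgr6-high cells were again the brighter population in either dye, by more in Cy3 than in Cy5. The ratios were 1.05 and 1.78 on arrays 1 and 2, with a mean of 1.42 ± 0.52 (SD, n = 2 arrays). The scanner's ratios for this probe averaged 1.78 ± 0.31.

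A neighbouring Dsp probe, at base 8879, gave nearly the same ratio, 1.22 on array 1 and 1.53 on array 2, with a mean of 1.37 ± 0.21 (2.59-fold). Its scanner ratios averaged 1.72 ± 0.20. Its Cy3 signals were 3172 in Lgr6-high cells, against 596 in Lgr5-high cells, and its Cy5 signals were 398 in Lgr6-high cells, against 292 in Lgr5-high cells. The probes farther from the transcript's 3′ end were dim. The Dsp probe at base 6803 was well above background only in Cy3, at 198 in Lgr6-high cells, against 123 in Lgr5-high cells. It measured 0.26 and 0.23 on arrays 1 and 2, whereas the scanner's ratios for it were 1.58 and 2.08. The probe at base 5665 was not well above background in either population on either array, and its scanner ratios averaged 0.14. Neither was compared, and the 2 Dsp probes that were compared did not differ beyond the spread between arrays.

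Pkp3 encodes plakophilin 3, which is found in the desmosomes of most epithelia. In Cy3 its signal was 17733 in Lgr6-high cells, against 5942 in Lgr5-high cells. In Cy5 it was 2199 in Lgr6-high cells, against 1517 in Lgr5-high cells. The order of the populations was the same in both dyes, and the ratio was 1.24 on array 1 and 0.71 on array 2. The mean of 0.98 ± 0.37 (SD, n = 2 arrays) fell short of the 2-fold minimum by less than the spread between arrays, so that Pkp3 cannot be told from a gene that meets it. The scanner's ratios, 1.18 and 1.41 with a mean of 1.29 ± 0.16, placed Pkp3 past the rule.

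Jup encodes plakoglobin, the armadillo protein shared by desmosomes and adherens junctions. Its probe was dim, at percentile 35.5 of the compared genes by mean intensity. Its Cy3 signal was 537 in Lgr6-high cells, against 192 in Lgr5-high cells, and its Cy5 signal was 217 in Lgr6-high cells, against 166 in Lgr5-high cells. The Lgr5-high spot in Cy5 was not well above background, so Jup passed the filter on dim probes only through Lgr6-high cells, the population in which it measured higher. Both arrays gave almost the same ratio, 0.92 on array 1 and 0.93 on array 2, with a mean of 0.93 ± 0.0086 (SD, n = 2 arrays). This mean was under the 2-fold minimum, whereas the scanner's ratios, 1.45 and 2.02, averaged 1.73 ± 0.40 and met the rule. Both the size of the Jup ratio and its small SD thus depended on the processing.

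Perp encodes a tetraspan membrane protein of desmosomes, a target of p63 in stratified epithelia, without which mice form weak desmosomes and blister. Its Cy3 signal was 27248 in Lgr6-high cells, against 6659 in Lgr5-high cells. In Cy5 the signals were 2803 in Lgr6-high cells, against 2058 in Lgr5-high cells. Lgr6-high cells were brighter in either dye, and the ratios were 1.49 on array 1 and 0.78 on array 2, with a mean of 1.13 ± 0.50 (SD, n = 2 arrays). Perp lay within the spread between arrays of the 2-fold minimum, as did Pkp3 and also Dsp (1.42 ± 0.52). The scanner's ratios for Perp were 1.38 and 1.48, with a mean of 1.43 ± 0.07.

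In order of their mean ratio the genes ran Pkp1, Dsp, Perp, Pkp3 and Jup. The step between Dsp and Perp, and each step below it, was smaller than the larger SD of the neighbours, and the step between Pkp1 and Dsp, 2.16 against 1.42, was larger than either SD. On array 2 alone Dsp (1.78) and Pkp1 (1.82) were level, and Jup (0.93) came next. The probes of Pkp3 and Perp were bright, at percentiles 97.2 and 97.8 of the compared genes by mean intensity, and both had the lower ratio on array 2. Under background correction with outlier-marked spots left in its fit, the ratios on array 2 turned to -0.89 for Perp and -0.54 for Pkp3, and of the 5 genes only Pkp1 met the rule of size. With each array centred on its median in place of loess, no member met it, since array 1 gave between -1.28 (Pkp3) and 0.18 (Pkp1) and array 2 between 2.36 (Jup) and 4.22 (Pkp1). The means stayed above 0 for all 5 genes in both cases. Without background subtraction Perp measured 0.71 on average and was not called, with -0.22 on array 2, where Pkp3 measured -0.11.

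**Figure D2:**
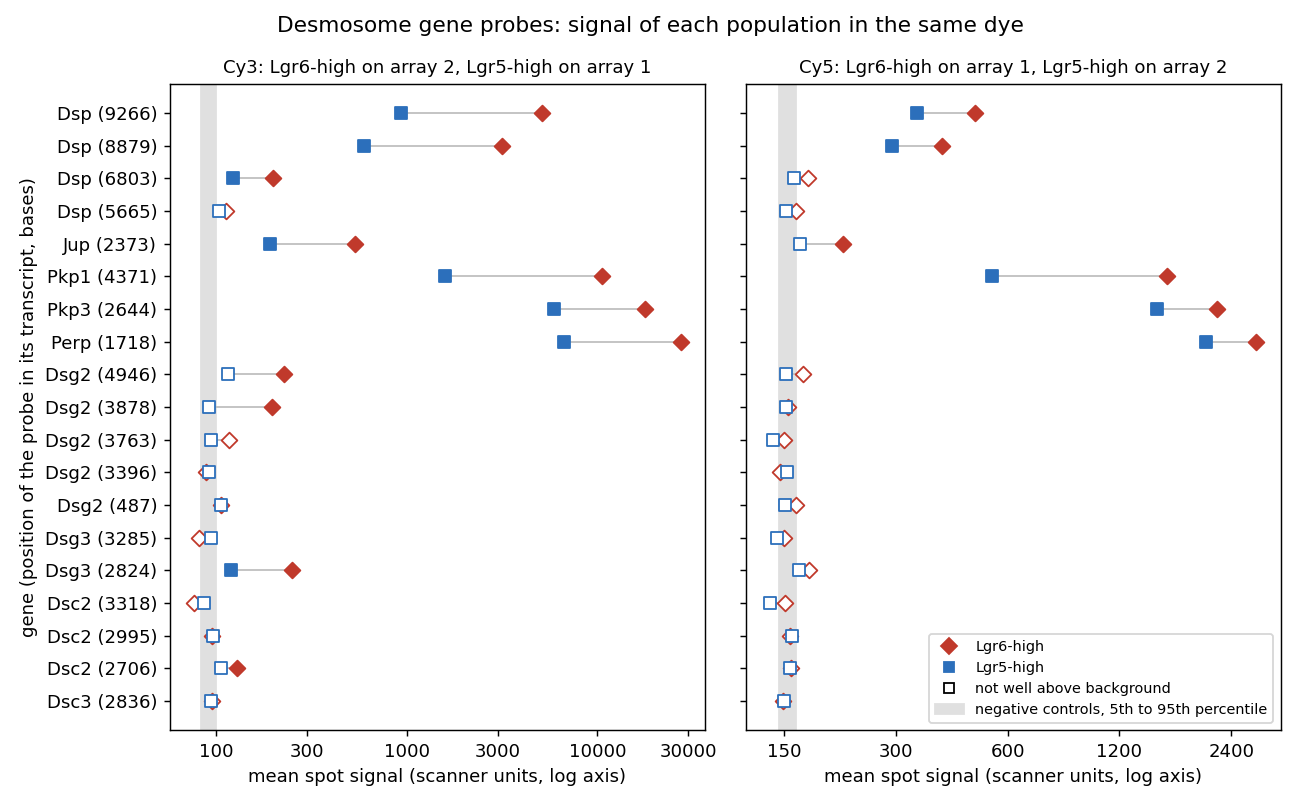
Mean spot signal in scanner units (horizontal log axis) of each desmosome gene probe (rows) for Lgr6-high (diamonds) and Lgr5-high cells (squares), with Cy3 on the left and Cy5 on the right, so that each panel holds 1 dye and both arrays. Grey bands run from the lowest 5th to the highest 95th percentile of the negative controls, open symbols were not well above background, and at all 6 compared probes the diamond lies right of the square in both dyes, up to 27248 against 6659 for Perp in Cy3.

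A ratio of the 2 populations within the same dye, each on its own array and centred on the median of the compared genes, was added after the data had been seen. In Cy3 it was 2.26 for Pkp1, 2.001 for Dsp, 1.54 for Perp, 1.17 for Jup and 1.08 for Pkp3. In Cy5 it was 2.02 for Pkp1, 0.91 for Jup, 0.90 for Dsp, 0.84 for Pkp3 and 0.75 for Perp. All 5 genes were therefore higher in Lgr6-high cells in each dye taken alone, with medians of 1.54 in Cy3 and 0.90 in Cy5. Each of these ratios sets 1 array against the other, so it also carries any difference between the arrays.

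The cadherins of the desmosome lay at or near the level of the negative controls at most probes. The highest Cy3 signals in Lgr6-high cells, 250 for Dsg3 and 226 and 196 for Dsg2, were above that level. Dsg2, Dsg3, Dsc2 and Dsc3, all on chromosome 18, were covered by 11 probes. Lgr6-high cells were well above background at none of them on array 1 (Cy5) and at 4 on array 2 (Cy3). Lgr5-high cells were well above background at 1 on array 1 (Cy3) and at none on array 2 (Cy5). Cy3 signals ranged from 76.9 to 250 in Lgr6-high cells, and from 86.3 to 119 in Lgr5-high cells. Negative controls in Cy3 reached at most 102.7 on array 2 and 103.1 on array 1, around medians of 91.9 and 92.8. In Cy5, Lgr6-high cells ranged from 146 to 174 and Lgr5-high cells from 137 to 165, against negative control maxima of 166 on array 1 and 164 on array 2. A direction for these 4 genes was not detectable at this signal.

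Dsg3, a desmoglein of the lower epidermal layers and the antigen of pemphigus vulgaris, had 2 probes. The probe at base 2824 gave 250 in Lgr6-high cells, against 119 in Lgr5-high cells in Cy3, both well above background, and 174 in Lgr6-high cells, against 165 in Lgr5-high cells in Cy5, neither of which was. The ratio of this Dsg3 probe was 0.25 on array 1 and 0.34 on array 2, with a mean of 0.29 ± 0.06, whereas the scanner software gave 1.45 and 2.71. The other Dsg3 probe, at base 3285 of another transcript record, was at background throughout and had a mean ratio of 0.00026. The 2 Dsg3 probes differ in what they detected, and no value is drawn from either.

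Dsg2, the desmoglein of simple epithelia and of many other cells that form desmosomes, had 5 probes. The probes at bases 4946 and 3878 were well above background only for Lgr6-high cells on array 2, at 226 and 196 in Cy3, against 115 and 92.3 for Lgr5-high cells in the same dye. Their mean ratios were 0.39 ± 0.41 and 0.30 ± 0.29, no larger or only slightly larger than their SDs. The scanner software gave 1.03 and 2.39 on arrays 1 and 2 at base 4946, and 0 and 2.12 at base 3878. At the Dsg2 probes starting at bases 3763, 3396 and 487, no population was well above background, and the scanner's ratios averaged 0.54, 0 and -0.27. The 2 probes above background lay nearest the 3′ end of the Dsg2 transcript, as did the 2 compared probes in Dsp.

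Dsc2, a widely expressed desmocollin, had 3 probes, of which the 1 at base 2706 was above background only for Lgr6-high cells on array 2, at 129 in Cy3, against 107 for Lgr5-high cells. The mean ratios of the 3 Dsc2 probes lay between 0.019 and 0.078. Dsc3, a desmocollin of the basal epidermis, had 1 probe, at which no population was well above background. Its Cy3 signal was 95.8 in Lgr6-high cells, against 93.7 in Lgr5-high cells. Over the 11 cadherin probes the signal was higher in Lgr6-high cells at 6 in Cy3 and at 8 in Cy5, and the mean ratios had a median of 0.078. Of the 13 member probes not compared, 11 were cadherin probes and 2 were Dsp probes.

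Other proteins built into or onto desmosomes were compared by the same rule. Of 11 genes for them, 3 were compared. Periplakin (Ppl), a plakin of the plaque and the cornified envelope, measured 2.10 and 1.73 on arrays 1 and 2, with a mean of 1.91 ± 0.27 (3.77-fold). Envoplakin (Evpl), its partner, measured 1.41 and 0.76, with a mean of 1.08 ± 0.46 (2.12-fold), so that array 2 alone would not call it. Dsg1a, a desmoglein of the upper epidermis, measured 0.36 and 0.83, with a mean of 0.60 ± 0.34, and was not called. Lgr5-high cells were above background for Dsg1a on 1 array only, and the scanner's ratios put it at 2.52. The remaining 8 genes (Dsg1b, Dsg1c, Dsg4, Dsc1, Pkp2, Pkp4, Cdsn and Kazn) were not compared.

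Regulators of desmosome genes or of desmosome turnover gave 4 compared genes of 11, of which 1 was called. Grhl1, a grainyhead-like factor that regulates Dsg1 in mouse epidermis and hair follicle, was higher in Lgr6-high cells at 0.93 and 1.22 on arrays 1 and 2, 2.10-fold on average. Trp63, which encodes the p63 factor upstream of Perp, measured 0.43 ± 0.35 and was not called. Trp53 measured 0.07 ± 0.48 and Grhl2 0.05 ± 0.49, each with opposite signs on the arrays. The median of the 4 was 0.25.

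Keratins that desmosomes anchor gave 8 compared genes of 9, and several differed in sign between the arrays. Krt10, Krt16 and Krt1 were called higher in Lgr6-high cells. Krt10, a suprabasal keratin, had a mean ratio of 3.58 ± 0.43, and Krt16, a keratin of activated or follicular keratinocytes, had 2.97 ± 0.37. Krt1, the partner of Krt10, measured 4.68-fold higher in Lgr6-high cells on average. It was not well above background in Lgr5-high cells on either array, and the size of its ratio varied with the processing. The basal keratins Krt14 and Krt5 measured 2.24 and 1.82 on array 1 and -0.10 and -0.15 on array 2, and were not called. With the scanner's ratios both were called, at 1.65 and 1.06 for Krt14 and 1.07 and 1.17 for Krt5 on arrays 1 and 2, whereas their means turned to -0.49 and -0.90 with the background fit on all spots. Krt15, a basal and follicular keratin, measured 1.95 on array 1 and -0.12 on array 2, and Krt6a measured -0.08 and 0.39. Krt17, a keratin of the follicle, measured 0.29 on array 1 and -2.30 on array 2. With the scanner's ratios Krt15 gave 1.43 and 1.11, which met the rule, and Krt17 gave -0.62 and -0.93, which did not. With the background fit on all spots the means were -0.62 for Krt15 and -2.65 for Krt17. Krt5, Krt14, Krt15 and Krt17 were bright and had the lower ratio on array 2, as did the brightest genes given above. Krt6a, at percentile 51.6 by mean intensity, had the higher ratio on array 2. The cause of these differences was not tested. The median of the 8 keratins was 2.09 on array 1 and 0.14 on array 2, against 1.24 and 0.93 for the 5 desmosome genes.

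Of the other junctions of keratinocytes, the adherens junction list was mixed, and most hemidesmosome genes measured higher in Lgr6-high cells. Of 11 adherens junction genes 9 were compared and 2 were called, both higher in Lgr6-high cells: Nectin2, an immunoglobulin-like adhesion molecule, at 4.79-fold and Cdh1, which encodes E-cadherin, at 3.58-fold. In that list 6 genes were positive and 3 negative on both arrays. The 3 were Cdh3 (-0.11 ± 0.03), Ctnnb1 (-0.39 ± 0.27), which encodes beta-catenin, the close relative of plakoglobin, and Afdn (-0.68 ± 0.05), and none was called. Averaged over all its probes that passed the filter, Afdn measured -0.13. Of 9 hemidesmosome genes, which attach basal cells to the basement membrane, all were compared and 4 were called higher in Lgr6-high cells. These were Col17a1 at 3.19-fold, Itga6 at 2.99-fold, Lamb3 at 2.23-fold and Itgb4 at 2.14-fold. Dst at 1.93-fold lay just under the rule. Among the hemidesmosome genes 7 were positive and 1, Cd151 (-0.25 ± 0.02), was negative on both arrays, and Plec differed in sign between them. With the background fit on all spots Lamb3 measured 0.68 and Itgb4 0.71, under the 2-fold minimum, and the regulator Grhl1 measured 0.59. The list medians were 0.76 for adherens junctions and 0.95 for hemidesmosomes, against 1.13 for the desmosome genes and -0.045 for all compared genes. No test of a difference between the lists was made.

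**Figure D3:**
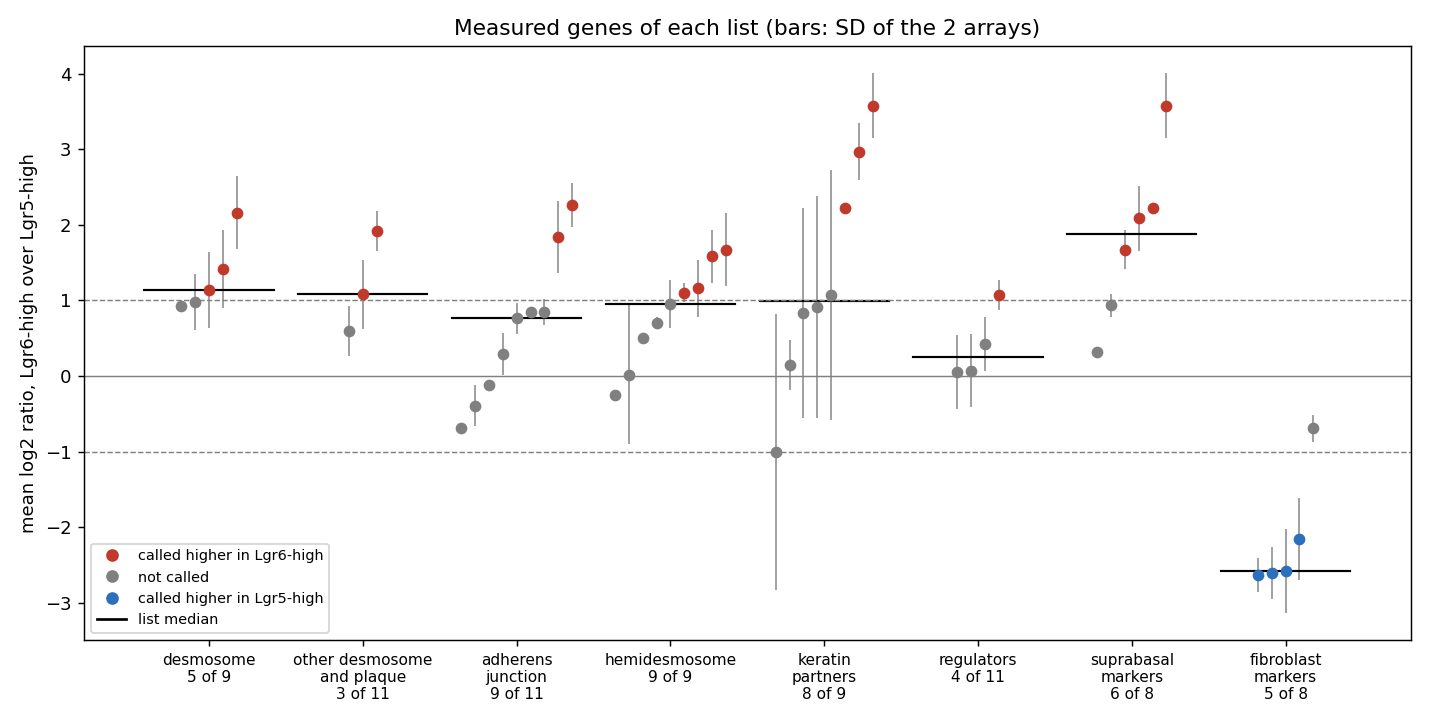
Mean log2 ratio of Lgr6-high over Lgr5-high (vertical axis) of each compared gene, with bars for the SD of the 2 arrays, by gene list (horizontal axis, with the number compared of the number listed). Red points were called higher in Lgr6-high, blue points higher in Lgr5-high, grey points were not called and black lines are list medians, at 1.13 for the desmosome genes and -2.58 for the fibroblast markers.

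Marker lists of keratinocyte layers and of other cell types also held genes that differed between the populations, except where none of their genes was compared. Few genes of the endothelial, mural and melanocyte lists could be compared. Of 8 suprabasal markers 6 were compared, all positive on both arrays, and 4 were called, with Lor (4.24-fold) and Klf4 (3.19-fold) beside Krt10 and Krt1. Lor and Krt1 passed the filter on dim probes only through Lgr6-high cells, the population in which they measured higher. The summed normalised intensity of the 6 suprabasal markers was 24204 and 18773 in Lgr6-high cells, against 4976 and 5171 in Lgr5-high cells, on arrays 1 and 2. Ivl and Flg, of the outer layers, were at background in both populations. For the 5 desmosome genes the sum was 20395 and 18636 in Lgr6-high cells, against 6904 and 9375 in Lgr5-high cells.

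Of 6 basal markers all were compared and 2 were called higher in Lgr6-high cells, Col17a1 and Itga6. Their sum was 187570 and 90647 in Lgr6-high cells, against 48611 and 92504 in Lgr5-high cells, so that it was higher in Lgr6-high cells on array 1 and not on array 2. Most of that sum is Krt14 and Krt5, and the median ratio of the list was 0.95. The part of basal and suprabasal keratinocyte RNA in the desmosome result was not tested.

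Fibroblast markers went the other way. Of 8 such genes 5 were compared, all negative on both arrays, and Col1a1, Col1a2, Col3a1 and Dcn were called lower in Lgr6-high cells. All 5 passed the filter on dim probes only through Lgr5-high cells, the population in which they measured higher. So did the 2 endothelial markers and the melanocyte marker Dct given below. The sum of the 5 fibroblast markers was 417 and 46.1 in Lgr6-high cells, against 2675 and 1460 in Lgr5-high cells. Pdgfra and Fbn1 were at background in both. Among endothelial markers 2 of 8 were compared and called lower in Lgr6-high cells, Egfl7 (-1.15 ± 0.31) and Ramp2 (-2.42 ± 0.33). Their sums were 123 and 15.2 in Lgr6-high cells, against 641 and 412 in Lgr5-high cells. Pecam1, Cdh5, Kdr, Tek, Emcn and Cldn5 were at background in both populations. Of 4 mural markers 2 were compared, and Tagln was called lower in Lgr6-high cells (list sums of 897 and 957 in Lgr6-high cells, against 2065 and 1837 in Lgr5-high cells). The other mural marker compared, Acta2, measured 0.60 and 1.19 on arrays 1 and 2 at its brightest probe, with a mean of 0.90 ± 0.42, and was not called. Averaged over all its probes that passed the filter, Acta2 measured -0.36, so its direction depended on the probe. Of 5 melanocyte markers only Dct was compared, and it was lower in Lgr6-high cells (sums of 73.0 and 6.82 in Lgr6-high cells, against 290.3 and 132 in Lgr5-high cells). Tyr, Mlana and Tyrp1 were at background in both populations. None of 6 leukocyte markers was compared. Cd74 was well above background on at least 1 array in both populations and Cd3e in Lgr5-high cells, and Ptprc, Cd207, Lyz2 and Cd68 were in neither. The desmin gene Des, the cardiac myosin gene Myh6 and Pkp2, the plakophilin of heart and simple epithelia, were not above background in any population. Whether RNA of fibroblasts, endothelial cells, mural cells or melanocytes had a part in the desmosome ratios was not tested.

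Promoter windows were at hand for Dsp and Jup of the 9 members, and they are shown to set the sequences of these plaque genes side by side. The sequences are from RefSeq on build GRCm38.p6, a build other than that of the probes, and end at the base before the transcript start. They lie at chr13:38151044-38151293 (plus strand) for Dsp and chr11:100397791-100398040 (minus strand) for Jup. Capitals mark the GC box letters GGGCGG and the letters CACCC, which Klf factors can bind, on either strand.
Dsp promoter: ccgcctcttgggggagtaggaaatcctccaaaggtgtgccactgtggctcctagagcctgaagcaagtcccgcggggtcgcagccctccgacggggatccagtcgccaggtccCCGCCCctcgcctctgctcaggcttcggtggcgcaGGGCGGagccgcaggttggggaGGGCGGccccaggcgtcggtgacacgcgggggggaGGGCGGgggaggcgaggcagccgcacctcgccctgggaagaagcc
Jup promoter: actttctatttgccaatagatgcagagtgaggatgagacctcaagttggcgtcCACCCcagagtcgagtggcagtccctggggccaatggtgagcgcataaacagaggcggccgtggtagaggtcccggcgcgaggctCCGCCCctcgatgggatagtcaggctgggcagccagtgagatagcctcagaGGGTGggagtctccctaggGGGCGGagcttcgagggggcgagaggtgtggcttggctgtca

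Both windows of 250 bases were rich in G and C, at 72.4% for Dsp and 62.0% for Jup, against a median of 52.4% over 32851 promoter windows. GGGCGG occurred 4 times in Dsp and 2 times in Jup, and at least once in 32.7% of all windows. CACCC occurred 2 times in Jup and not in Dsp, and in 52.0% of all windows, and no match of 1 motif overlapped a match of the other. Neither window held the grainyhead-like letters AACCGGTT (0.116% of windows), the AP-1 letters TGANTCA (6.75%), the E-box CAGGTG (17.2%) or the TATA box letters TATAAA (12.4%), searched on both strands. These matches describe the letters of the windows only.

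**Figure D4:**
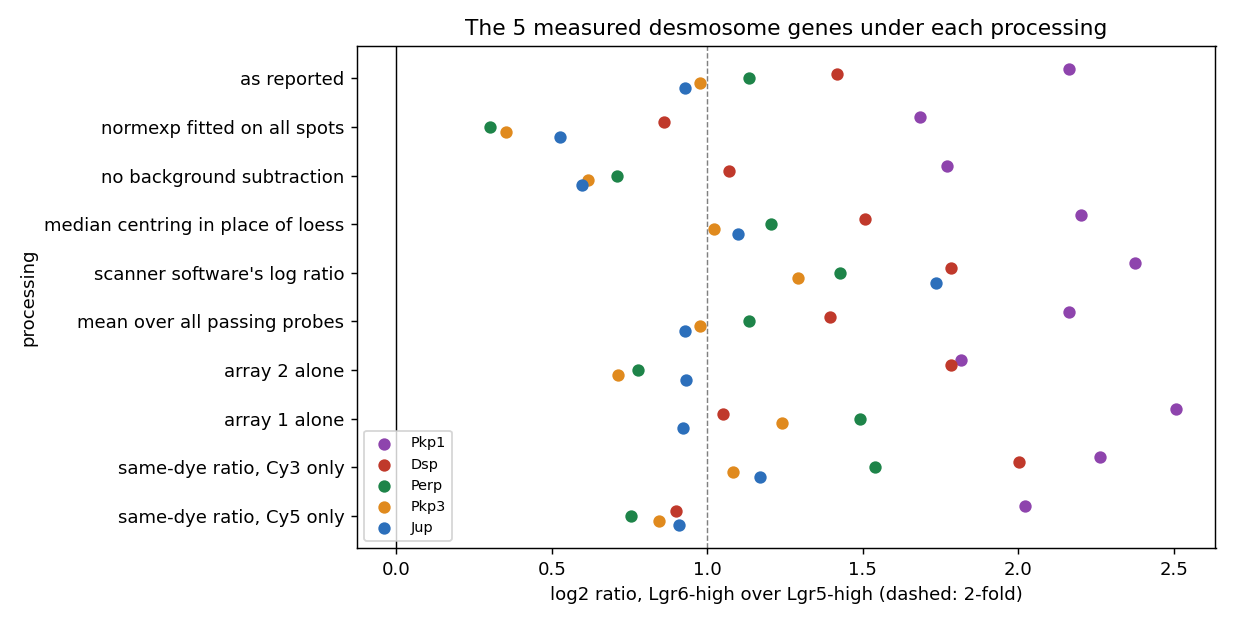
Log2 ratio of Lgr6-high over Lgr5-high (horizontal axis) of the 5 compared desmosome genes (colours) under each processing (rows), with the dashed line at 2-fold. All points lie right of 0, between 0.30 (Perp, background fit on all spots) and 2.51 (Pkp1, array 1 alone), but the points for median centring average arrays that differ in sign for 4 of the 5 genes.

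The processing changed the size of the mean ratios and not their direction, although single arrays turned in sign under the settings named above. Perp and Pkp3 ranged from 0.30 to 1.54 and from 0.35 to 1.29 over the 14 alternatives, Dsp from 0.86 to 2.001, Pkp1 from 1.68 to 2.51, and Jup from 0.53 to 1.73 over 13. With the scanner software's ratios all 5 genes met the rule, in a setting that called 15.5% of all compared genes higher in Lgr6-high cells. Limma over the 2 arrays with the 2-fold minimum called Pkp1, Dsp and Perp too, beside 7.39% of all compared genes. The lowest mean ratio of Pkp1, 1.68, came with the background fit on all spots. For genes with 1 probe, the choices of filter and of probe could not change the ratio.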

How the data were processed

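Per the labels' protocols, Trizol RNA (150 ng) of each sort was labelled by linear amplification. The deposited scanner tables hold spot and local background intensity on a linear scale, and the software's log10 ratio of Cy5 over Cy3 after its own background and dye correction, per the file headers. The headers name Agilent Feature Extraction 10.5.1.1 and the submitters' processing notes name 9.5.3. The authors' value table holds the same log10 ratios, turned to Lgr6-high over Lgr5-high, with a column median of 0.

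Mean signals were corrected with normexp (offset 50, local background, fitted on spots without an outlier mark) and normalised by loess within each array (span 0.3, control spots at weight 0) in R 4.3.3 with limma 3.58.1, then converted to log2. Signs were turned by the dyes in the labels. Genes were named through accessions, symbols or synonyms in a RefSeq GRCm38.p6 table, and otherwise as the files name them. The genes named are all members and, from each other list, those called, and those of a count of 3 or fewer. Other genes named, among them the uncalled keratins, Acta2 and markers at background, were chosen after their values were seen.

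Members and lists were chosen with earlier results of these data known. Alternatives are given in the closing section. The number of arrays limits the precision. Protein sequences were not used here. The list of regulators is given without 1 gene that is not reported here.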

Additional observations from a re-analysis of the deposited data

How the results depend on the processing

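Without 1 array in turn, 2 to 4 desmosome genes met the 2-fold minimum, their median ranged from 0.93 to 1.24, and overall 434 to 611 were called toward Lgr6-high cells and 315 to 471 toward Lgr5-high cells. With the background fit on all spots, 1 desmosome gene was called, the median was 0.53, and overall 124 were called toward Lgr6-high cells and 151 toward Lgr5-high cells. In that fit the background SD of Cy5 on array 2 was 387, against 2.43 without outlier-marked spots. Without background subtraction the median was 0.71 and 212 genes overall were higher in Lgr6-high cells. Median centring called 0 desmosome genes, and 134 and 57 genes overall. The scanner's ratios, and equally the authors' value table, called 5 desmosome genes with a median of 1.73, and 958 and 958 genes overall. A lower rule (0.6 on average, 0.3 on each array) called 5 desmosome genes, and 870 and 797 overall. Same-dye ratios, added after the data had been seen, gave medians of 1.54 in Cy3 and 0.90 in Cy5. Filters on dim probes, averaging of probes and outlier-marked spots kept left the 3 desmosome calls, but could not change the ratio of a gene with 1 probe. So did limma over the 2 arrays, which called 458 genes toward Lgr6-high cells and 302 toward Lgr5-high cells, with adjusted p-values between 4.38e-05 (Pkp1) and 0.00988 (Jup) that may measure technical spread only. No desmosome gene was called higher in Lgr5-high cells under these alternatives. Except where stated, the cause of a change was not tested. No paired analysis was possible because there is 1 comparison within each array and the array numbers name a dye orientation, not a pair of samples. Signal over background limited the 4 cadherin genes, for which no direction was detectable.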
